A study of Mus musculus with 27 samples.

Results

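The genes described here encode subunits of the BAF (SWI/SNF) chromatin remodeling complex that are exchanged when neural progenitors become neurons, with the family members that can take the same place in the complex. They are Smarca4, Smarca2, Actl6a, Actl6b, Phf10, Dpf1, Dpf3, Ss18, Ss18l1 and Smarcd3. Members were found by gene symbol, and all 10 were listed among the 38168 features of the deposited RNA-seq table. All 10 also passed the filter on low values, 1 CPM or more (a read count divided by the library total, in units that sum to nearly the same value in each library) in no fewer than 3 libraries, which left 31760 features tested.

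The data are whole-retina transcriptomes of wild type C57BL/6J mice in 27 libraries. There were 3 libraries at embryonic day 14 (E14), 3 at E17, 4 at postnatal day 1 (P1), 3 at P6, 4 at P15, 4 at P28 and 6 at P60. The mice were untreated and carried no transgene, so age is the only factor. The 14 libraries of P15, P28 and P60 are called mature below, and the 6 libraries of E14 and E17 embryonic. Most libraries represent pooled retinas, but at P60 the methods describe 2 pools and 4 single mice, and the labels do not say which library is which. Libraries up to P1 came from mixed sexes and later ones from males, so age and sex composition cannot be told apart in comparisons across that boundary.

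BAF complexes use the energy of ATP hydrolysis to slide or evict nucleosomes. Each complex carries 1 catalytic ATPase, BRG1 (Smarca4) or BRM (Smarca2), and a set of accessory subunits. In neural progenitors of the mammalian brain the complex holds Actl6a, Phf10 and Ss18, and as cells leave the cell cycle these are replaced by Actl6b, by Dpf1 or Dpf3, and by Ss18l1 (CREST). Repression of Actl6a by miR-9-3p (formerly miR-9*) and miR-124, which are themselves repressed by REST in non-neuronal cells, is the best described trigger of the exchange.

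Because Actl6a is the textbook target of miR-9-3p, the mature miRNA and the seed matches found in the members are shown first. Capitals mark the seed of the miRNA (bases 2 to 8) and, in the target lines, the bases complementary to it. The miRNA is from RefSeq (GRCm38.p6) and arises from Mir9-1, Mir9-3 and Mir9-2 on chromosomes 3, 7 and 13, all with 1 mature sequence. The target sites are from the 3′UTRs of GENCODE transcripts of GRCm38.
mmu-miR-9-3p: aUAAAGCUagauaaccgaaagu
Actl6a-201, chr3:32726626-32726647, plus strand: acctcaacgtctgtAGCTTTAg
Smarca2-201, chr19:26777488-26777509, plus strand: tgtcatctagaactAGCTTTAg
The seed match AGCTTTA was searched on the transcript strand in 1 coding transcript of each member. Actl6a and Smarca2 each held 1 match and the other 8 members held 0. Across 20981 protein-coding genes with an annotated 3′UTR, 2198 (10.5%) held at least 1. The 3′UTR of Actl6a spans 371 bases and that of Smarca2 951, beside a median of 853 bases over all these genes. A match describes the letters of the transcript only, and in these libraries Actl6a fell while Smarca2 rose, as described below.

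The promoters of both ATPase genes and of Dpf3 are shown because Smarca2 and Dpf3 are the 2 members that rose and Smarca4 is the ATPase gene that fell. The sequences are RefSeq GRCm38.p6 windows of 300 bases around the annotated start, on the strand of the gene. Capitals mark GC boxes (GGGCGG on either strand) and, in Dpf3, the YY1 motif GCCATNTTG on the opposite strand, and no marked stretches overlap.
Smarca4, chr9:21615919-21616218, plus strand: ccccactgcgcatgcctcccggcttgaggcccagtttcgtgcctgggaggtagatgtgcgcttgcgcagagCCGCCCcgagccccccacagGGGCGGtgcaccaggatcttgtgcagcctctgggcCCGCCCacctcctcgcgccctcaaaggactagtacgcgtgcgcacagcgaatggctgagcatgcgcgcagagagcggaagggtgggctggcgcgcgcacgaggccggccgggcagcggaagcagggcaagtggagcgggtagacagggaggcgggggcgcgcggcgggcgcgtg
Smarca2, chr19:26604910-26605209, plus strand: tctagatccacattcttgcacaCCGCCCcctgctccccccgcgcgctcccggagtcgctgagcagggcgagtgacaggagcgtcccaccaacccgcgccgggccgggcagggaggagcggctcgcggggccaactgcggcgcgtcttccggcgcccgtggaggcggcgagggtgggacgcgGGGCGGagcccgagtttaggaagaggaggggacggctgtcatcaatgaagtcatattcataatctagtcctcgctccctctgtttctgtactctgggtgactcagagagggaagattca
Dpf3, chr12:83487687-83487986, minus strand: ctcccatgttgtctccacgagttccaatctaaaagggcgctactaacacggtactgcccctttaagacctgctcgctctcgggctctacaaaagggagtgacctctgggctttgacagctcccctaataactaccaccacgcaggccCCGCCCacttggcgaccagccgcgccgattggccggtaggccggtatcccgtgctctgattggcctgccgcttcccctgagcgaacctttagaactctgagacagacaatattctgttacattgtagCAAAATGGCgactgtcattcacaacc
Promoter windows were found for 9 of the 10 members. A GC box was present in 9 of 9, beside 35.7% of 32851 promoter windows. The photoreceptor homeodomain core TAATCC was in 0 of 9 (7.06% of all windows) and the E-box CACGTG in 0 of 9 (7.15%), on either strand. GCCATNTTG was in Dpf3 alone, beside 2.51% of all windows. The members' windows were richer in G and C than the median window, from 55.3% in Dpf3 to 87.0% in Phf10 beside 52.7%.

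Recovered depth ran from 7076646 to 11330762 reads per library (median 7968785), so that 1 read was worth 0.0882 to 0.141 CPM. The 7 listed genes of cycling progenitors summed to 5023 to 5493 CPM in embryonic libraries, 547 to 614 CPM at P6 and 149 to 213 CPM in mature ones. The 5 rod genes summed to 17.5 to 29.3 CPM in embryonic libraries and 16467 to 29259 CPM in mature ones. Genes of lens (5 of 6 in the table) stayed between 2.01 and 10.7 CPM, and those of retinal pigment epithelium (6 of 6) summed to 3.59 to 9.30 CPM in embryonic libraries and 12.2 to 65.6 CPM in mature ones. P60 replicates 3 to 6 stood apart from P60 replicates 1 and 2: their Pearson r with the P28 libraries across features was 0.942 to 0.976, while that of replicates 1 and 2 was 0.981 to 0.985. In replicates 3 to 6 the neuronal markers summed to 2011 to 2030.0 CPM and Müller glia markers to 933 to 979 CPM, beside 2151 to 2385 and 775 to 778 CPM in replicates 1 and 2. The fits were repeated without replicates 3 to 6, and all 10 members were then still called between mature and embryonic retina. The share of all features called without them was not taken, and with all libraries 35.0% were called higher and 40.4% lower.

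All 10 members varied with age (limma F test over the 7 ages, adjusted p from 2.4e-28 for Smarca2 to 0.0068 for Ss18l1), as did 83.0% of all features tested. For Ss18l1, the highest adjusted p among the alternative fits was 0.072. Between mature and embryonic retina, 2 members were higher, Smarca2 and Dpf3, and 8 were lower at an adjusted p under 0.05. The shares of all features called were 35.0% higher and 40.4% lower. In 2 members every mature library lay above every embryonic one (17.4% of all features), in 5 every mature library lay below (23.0%), and in the other 3, Actl6b, Ss18l1 and Smarcd3, the groups overlapped. The members' median log2 fold change was -0.49, and that of all features was -0.06. Thus the neuronal subunit genes Actl6b, Dpf1 and Ss18l1 were not higher in mature than in embryonic retina, and Dpf3 was the only gene among the 4 neuronal subunits that was. In whole retina, a change in the number of cells that use a gene and a change in RNA per cell cannot be told apart. The marker sums above moved with these results, and their part in them was not tested.

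**Figure D1:**
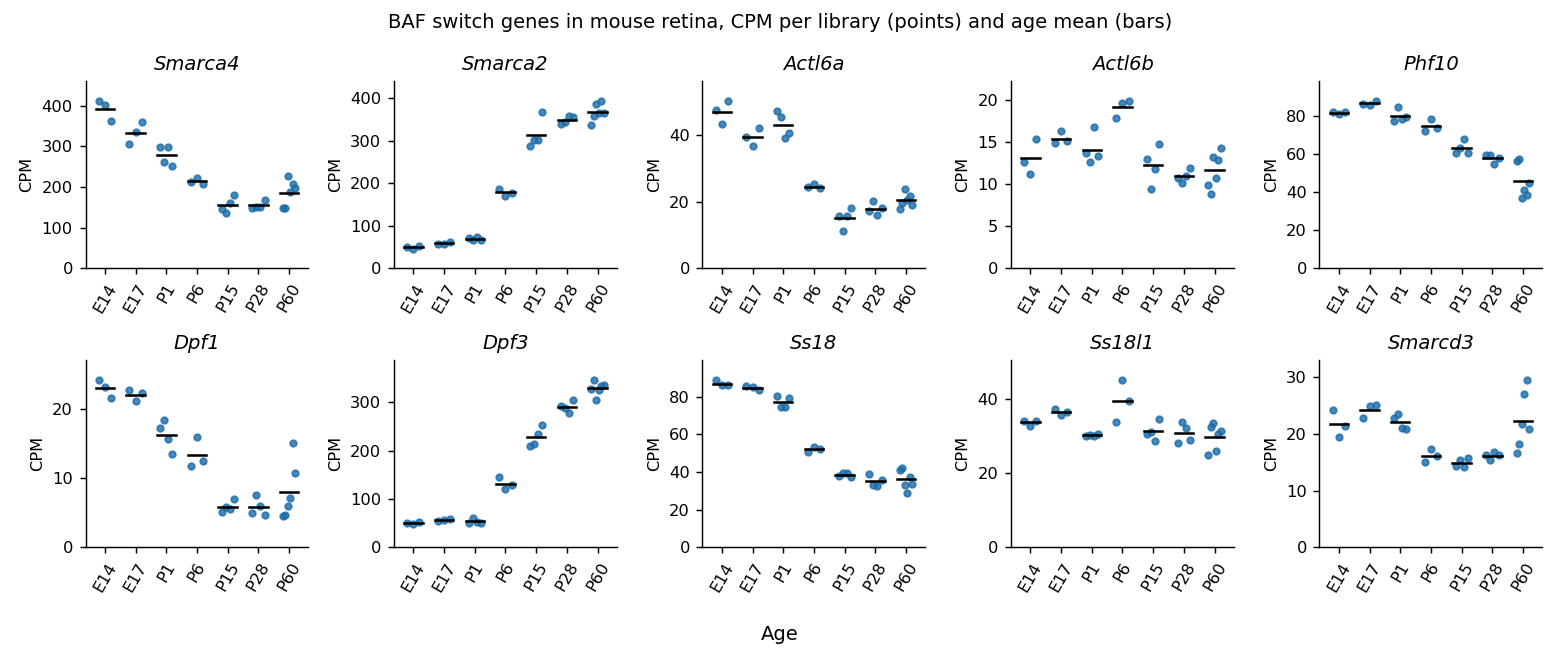
Expression of the 10 genes in CPM (vertical axes, from 0) at each of the 7 ages (horizontal axes), with 1 point per library and a bar at the age mean. Smarca2 rose from a mean of 49.0 CPM at E14 to 368 CPM at P60 and Dpf3 from 50.5 to 328 CPM, while Smarca4, Actl6a, Phf10, Dpf1 and Ss18 had every mature library below every embryonic one.

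The ATPase genes changed in opposite directions. Smarca4 (BRG1; chr9:21616169-21704230, plus strand) measured 411, 400.4 and 362 CPM at E14 and 305, 335 and 360.0 CPM at E17. At P1 it stood at 298, 262, 298 and 251 CPM, and at P6 at 211, 222 and 208 CPM. It reached 146, 136, 159.8 and 180.3 CPM at P15 and 149, 151, 150.2 and 169 CPM at P28. At each age up to P15 all libraries lay below all those of the age before. The 6 libraries of P60 read 148, 147, 226, 187, 206 and 197 CPM, and the upper 4 of these are replicates 3 to 6. Mature retina was 2.20-fold lower than embryonic retina, a log2 fold change of -1.13 (SE 0.07, limma adjusted p = 3.0e-15). Without P60 replicates 3 to 6 the log2 fold change was -1.24 (adjusted p = 1.9e-22). The decrease passed the test at P6 against P1 (-0.37, SE 0.11, limma adjusted p = 0.0091) and at P15 against P6 (-0.46, SE 0.11, adjusted p = 0.0018). The earlier steps, -0.23 to E17 and -0.27 to P1, did not pass in this fit (limma adjusted p = 0.29 and 0.16) or in edgeR (0.28 and 0.15). Both passed in limma with only the ages compared (adjusted p = 0.0011 and 0.0098) and without P60 replicates 3 to 6 (0.047 and 0.012). Whether the decrease began before P1 thus depends on the fit. The short gene model Gm27373 lies within Smarca4 on the same strand.

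Smarca2 (BRM; chr19:26605050-26778322, plus strand) rose the most of all members. Its levels were 49.1, 45.9 and 52.0 CPM at E14, 57.8, 57.9 and 61.9 CPM at E17 and 70.2, 66.2, 74.4 and 66.6 CPM at P1. Values of 187, 169.7 and 178 CPM followed at P6, and 287, 301, 300.5 and 367 CPM at P15. They ran from 338 to 358 CPM at P28 and from 336 to 393 CPM at P60 (median 366). The ages from E14 to P15 did not overlap, while the ranges of P15, P28 and P60 did. Mature retina was 6.26-fold higher than embryonic retina, a log2 fold change of 2.65 (SE 0.05, limma adjusted p = 1.2e-29). The steps were 1.35 from P1 to P6 (SE 0.08, limma adjusted p = 1.1e-15) and 0.81 from P6 to P15 (SE 0.08, adjusted p = 5.6e-10). A smaller step of 0.27 from E14 to E17 (SE 0.08, limma adjusted p = 0.027) did not pass edgeR's test (adjusted p = 0.11) nor the limma fit when any of E14 replicates 1 and 2 or E17 replicates 1, 2 and 3 was left out (adjusted p from 0.052 to 0.17). A lower row of the same symbol held 0.401 to 1.26 CPM on average at each age.

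Because both ATPases occupy the same place, their ratio was taken within each library. The mean log2 ratio of Smarca2 to Smarca4 was -2.99 ± 0.17 (SD, n = 3) at E14, -2.49 ± 0.08 (n = 3) at E17 and -1.99 ± 0.07 (n = 4) at P1. It reached -0.26 ± 0.11 (n = 3) at P6, 1.01 ± 0.10 (n = 4) at P15, 1.17 ± 0.08 (n = 4) at P28, and ran from 0.78 to 1.28 (n = 6) at P60. The reads of Smarca2 thus passed those of Smarca4 between P6 and P15, and all 14 mature ratios lay above all 6 embryonic ones. The difference of 3.80 on the log2 scale, a 13.9-fold change of the ratio, had p = 2.6e-05 in an exact two-sided permutation test over all 38760 assignments (adjusted p = 3.2e-05 over 5 ratios), and 3e-05 after rounding is the smallest p that they can give. Per kilobase of annotated exon, Smarca2 made up 6.44% ± 1.23 (SD, n = 6) of the ATPase transcripts in embryonic retina and 48.5% ± 2.64 (SD, n = 14) in mature retina. The annotated exons of Smarca2 span 14269 bases in all but its longest transcript 5921, and by transcript length the same shares were 14.0% and 69.1%. Gm20616 and 4931403E22Rik overlap Smarca2 on the opposite strand, and whether counting used the strand is not given in the sources used here.

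**Figure D2:**
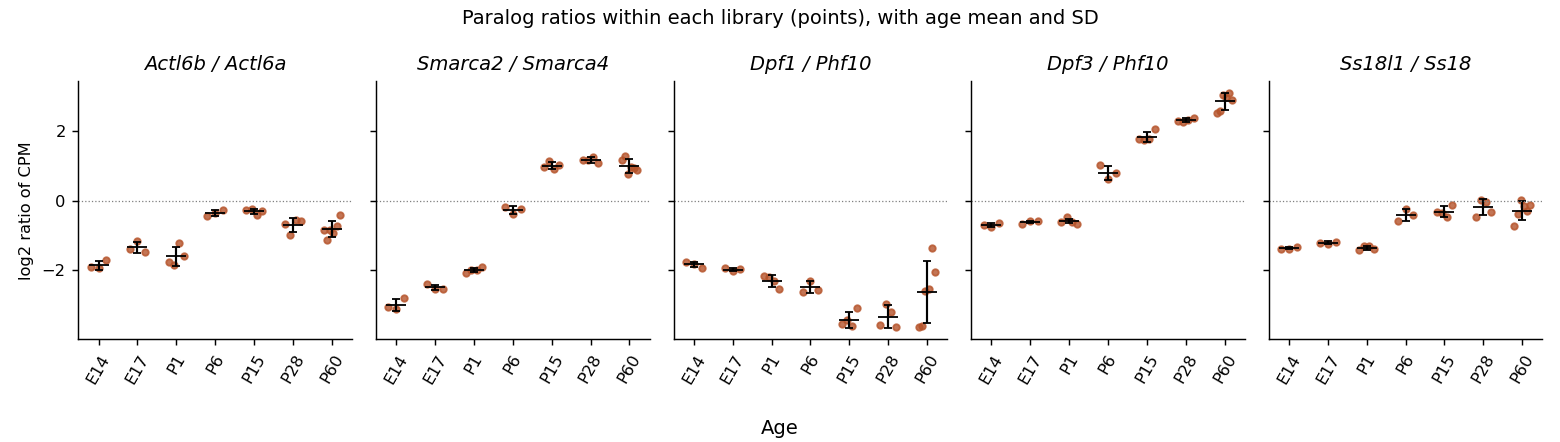
Log2 ratio of CPM between family members that can share a place in the complex, within each library (points) by age (horizontal axes), with the age mean and SD (black). The ratio of Smarca2 to Smarca4 rose from -2.99 at E14 to 1.17 at P28, and that of Dpf1 to Phf10 was lower in mature than in embryonic libraries, with a spread of 0.89 (SD) at P60.

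Among the actin-related subunits, the progenitor gene fell and the neuronal gene peaked at P6. Actl6a (chr3:32706298-32726973, plus strand) measured 47.3, 43.3 and 50.1 CPM at E14, 39.3, 36.6 and 42.1 CPM at E17 and 47.0, 45.3, 39.1 and 40.5 CPM at P1. It stood at 24.3, 25.2 and 24.0 CPM at P6 and at 15.7, 11.3, 15.6 and 18.1 CPM at P15. P28 libraries ran from 16.1 to 20.1 CPM and P60 libraries from 17.8 to 23.8 CPM (median 20.1). The ages E14 to P1 all lay above P6, and P6 lay above every mature library. Mature retina was 2.36-fold lower than embryonic retina, a log2 fold change of -1.24 (SE 0.08, limma adjusted p = 2.9e-15). The steps that passed were P6 against P1 (-0.78, SE 0.12, limma adjusted p = 4.5e-06) and P15 against P6 (-0.67, SE 0.12, adjusted p = 6.1e-05). Gm37353 and Mrpl47 overlap Actl6a on the opposite strand.

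Actl6b (chr5:137553517-137569582, plus strand), the neuron-specific actin-related subunit, was a low transcript with 63 to 185 reads in any embryonic or mature library. It measured 12.6, 11.2 and 15.4 CPM at E14, 14.9, 16.3 and 15.1 CPM at E17, and 13.7, 12.6, 16.8 and 13.4 CPM at P1. All 3 libraries of P6, with 17.9, 19.7 and 19.9 CPM, lay above those of every other age. Values of 13.0, 9.48, 11.8 and 14.8 CPM followed at P15, with 10.1 to 11.9 CPM at P28 and 8.87 to 14.3 CPM at P60 (median 11.8). The rise to P6 was 0.42 (SE 0.15, limma adjusted p = 0.031), and its adjusted p ran from 0.058 to 0.091 when P1 replicate 1, 2 or 4 or P6 replicate 2 or 3 was left out. The fall from P6 to P15 was -0.62 (SE 0.15, limma adjusted p = 0.0022). Between mature and embryonic retina the log2 fold change was -0.27 (SE 0.10, limma adjusted p = 0.014) with overlapping groups, and the call did not hold under edgeR (-0.19, adjusted p = 0.12), median-of-ratios scaling (-0.20, adjusted p = 0.086) or without E14 replicate 3 (-0.22, limma adjusted p = 0.067).

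The balance between the pair nevertheless moved. The log2 ratio of Actl6b to Actl6a was -1.85 ± 0.13 (SD, n = 3) at E14, -1.34 ± 0.16 (n = 3) at E17, -1.60 ± 0.28 (n = 4) at P1 and -0.35 ± 0.08 (n = 3) at P6. It was -0.30 ± 0.07 (n = 4) at P15, -0.70 ± 0.20 (n = 4) at P28 and -0.81 ± 0.24 (n = 6) at P60. All 14 mature libraries lay above all embryonic ones, and the difference was 0.96 (exact permutation p = 2.6e-05, adjusted p = 3.2e-05). Per kilobase of exon, Actl6b made up 23.3% ± 3.82 (SD, n = 6) of the pair in embryonic retina, 42.5% ± 1.10 (SD, n = 4) at P15 and 34.1% ± 3.83 (SD, n = 6) at P60, so Actl6a remained the more abundant transcript of the pair at every age.

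The PHD-finger subunits, which read histone marks, included both the strongest fall and the second rising member. Phf10 (chr17:14945009-14961273, minus strand), the progenitor form, measured 82.0, 81.3 and 82.2 CPM at E14, 86.5, 86.2 and 88.0 CPM at E17 and 77.5 to 85.1 CPM at P1. It ran from 72.1 to 78.6 CPM at P6, from 60.5 to 68.0 CPM at P15 and from 55.1 to 59.7 CPM at P28. At P60 the libraries read 56.6, 57.3, 37.0, 41.2, 38.6 and 44.7 CPM, with replicates 1 and 2 inside the P28 range and replicates 3 to 6 below it. Mature retina was 1.53-fold lower than embryonic retina, a log2 fold change of -0.61 (SE 0.07, limma adjusted p = 2.7e-09), and the groups did not overlap. The step from P28 to P60 was -0.35 (SE 0.09, limma adjusted p = 0.015), and without P60 replicates 3 to 6 it was -0.03 (adjusted p = 0.93). 1600012H06Rik overlaps Phf10 on the opposite strand.

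Dpf1 (chr7:29303951-29318243, plus strand) is a neuronal form in the brain, yet its level was highest in the embryonic libraries. It measured 24.1, 23.2 and 21.6 CPM at E14 and 22.7, 21.1 and 22.3 CPM at E17. P1 libraries stood at 17.2, 18.4, 15.7 and 13.5 CPM and P6 libraries at 11.7, 15.9 and 12.4 CPM. It reached 5.09, 5.79, 5.48 and 7.01 CPM at P15 and 4.93, 7.58, 5.95 and 4.65 CPM at P28. The P60 libraries, with 4.46, 4.65, 6.02, 7.07, 15.1 and 10.8 CPM, spread the most of all ages, and replicates 5 and 6 were the highest mature values. Mature retina was 3.24-fold lower than embryonic retina, a log2 fold change of -1.70 (SE 0.15, limma adjusted p = 1.8e-11). The largest step was P15 against P6 (-1.06, SE 0.24, limma adjusted p = 7.9e-04). Gm44632 overlaps Dpf1 on the opposite strand.

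Dpf3 (chr12:83213745-83487716, minus strand), the other neuronal PHD-finger form, which is also expressed in heart and muscle, rose with Smarca2. It measured 50.2, 48.6 and 52.6 CPM at E14, 54.5, 57.4 and 58.4 CPM at E17 and 51.1, 61.0, 51.7 and 50.5 CPM at P1. Values of 146, 121 and 128 CPM followed at P6, and 209, 213, 234 and 252 CPM at P15. P28 libraries read 292, 287, 277 and 304 CPM and P60 libraries 326, 345, 305, 325, 333 and 336 CPM. From P6 on, every age lay above the one before with no overlap. Mature retina was 5.12-fold higher than embryonic retina, a log2 fold change of 2.36 (SE 0.05, limma adjusted p = 5.7e-28). The steps were 1.28 from P1 to P6 (SE 0.08, limma adjusted p = 8.7e-15), 0.78 from P6 to P15 (SE 0.08, adjusted p = 1.9e-09) and 0.36 from P15 to P28 (SE 0.07, adjusted p = 0.0033). From P28 to P60 the difference was 0.18 (SE 0.07, limma adjusted p = 0.07), which passed in edgeR (0.23, adjusted p = 0.023). A lower row of the same symbol went from a mean of 4.20 CPM at E14 to 36.7 CPM at P60.

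Against Phf10, the neuronal forms moved apart. The log2 ratio of Dpf3 to Phf10 was -0.66 ± 0.06 (SD, n = 6) in embryonic and 2.41 ± 0.47 (SD, n = 14) in mature libraries, without overlap. The difference was 3.07 (exact permutation p = 2.6e-05, adjusted p = 3.2e-05). The log2 ratio of Dpf1 to Phf10 was -1.90 ± 0.10 (SD, n = 6) in embryonic and -3.05 ± 0.70 (SD, n = 14) in mature libraries, a difference of -1.15 (exact permutation p = 0.0012, adjusted p = 0.0012), and 1 of the 14 mature ratios lay above the highest embryonic one. Without P60 replicates 3 to 6 that difference was -1.52 (exact permutation, adjusted p = 1.2e-04). Per kilobase of exon, Dpf3 made up 42.5% ± 1.05 (SD, n = 6) of Dpf3 and Phf10 together in embryonic retina, 67.1% ± 3.01 (SD, n = 3) at P6 and 89.3% ± 1.66 (SD, n = 6) at P60. At P60 the level of Dpf3 was 77.7 ± 3.21 CPM per kilobase (SD, n = 6), that of Phf10 9.34 ± 1.82 and that of Dpf1 1.49 ± 0.775.

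**Figure D3:**
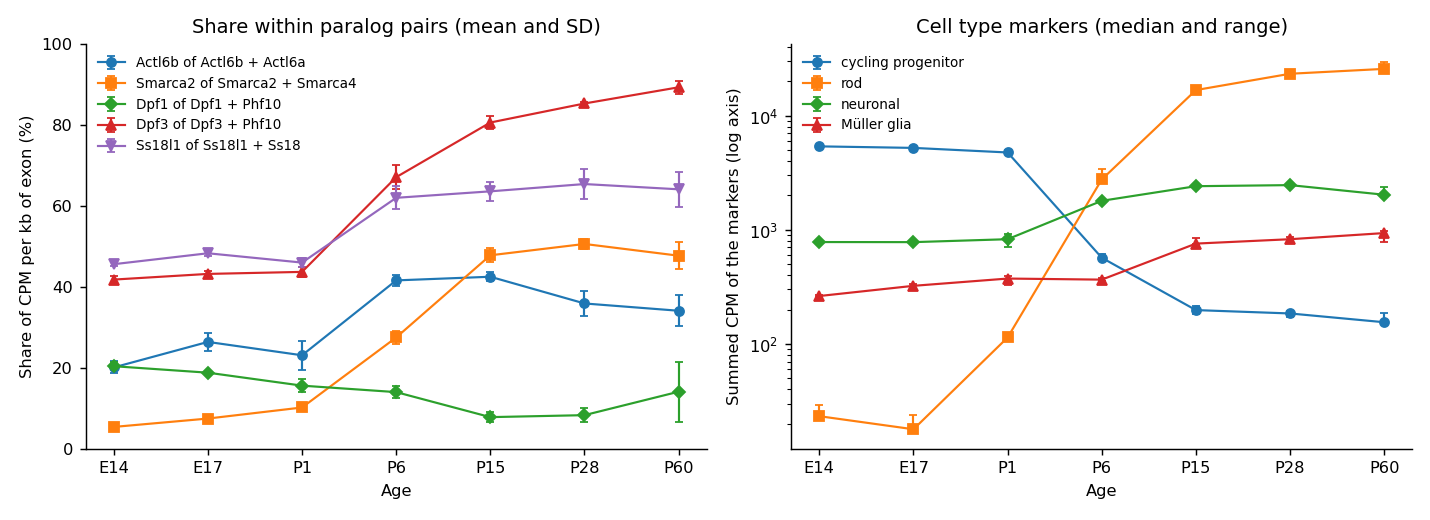
Left, share of CPM per kilobase of exon held by the first named gene of each pair (percent, mean and SD of the libraries) by age. Right, summed CPM of cell type markers (log axis, median and range) by age. The shares of Dpf3, Smarca2, Ss18l1 and Actl6b stepped up between P1 and P6 as the progenitor sum went from 4666 to 5045 CPM at P1 to 547 to 614 CPM at P6.

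In the SS18 family, the progenitor gene fell while the neuronal gene had its highest age mean, 39.4 CPM, at P6. Ss18 (chr18:14624198-14682914, minus strand) measured 88.7, 86.1 and 86.0 CPM at E14, 85.9, 85.2 and 83.4 CPM at E17 and 74.4 to 80.1 CPM at P1. It stood at 50.9, 53.2 and 52.0 CPM at P6, and ran from 37.2 to 39.5 CPM at P15, from 32.7 to 38.9 CPM at P28 and from 28.7 to 42.4 CPM at P60 (median 35.7). Each age from E17 to P15 lay wholly below the one before. Mature retina was 2.32-fold lower than embryonic retina, a log2 fold change of -1.21 (SE 0.06, limma adjusted p = 1.5e-17). The steps that passed were P6 against P1 (-0.56, SE 0.10, limma adjusted p = 2.5e-05) and P15 against P6 (-0.42, SE 0.10, adjusted p = 0.0011).

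Ss18l1 (chr2:180042509-180070201, plus strand), the calcium-responsive activator CREST, measured 34.1, 32.8 and 34.0 CPM at E14 and 37.3, 35.6 and 36.5 CPM at E17. P1 libraries lay between 29.9 and 30.5 CPM, and P6 libraries at 33.9, 45.0 and 39.4 CPM. It ran from 28.7 to 34.5 CPM at P15, from 28.1 to 33.8 CPM at P28 and from 24.8 to 33.4 CPM at P60 (median 30.9). The highest library was P6 replicate 2, and the embryonic and mature groups overlapped. The step from P1 to P6 was 0.36 (SE 0.11, limma adjusted p = 0.0075), and 0.27 (adjusted p = 0.087) without P6 replicate 2. The step from P6 to P15 was -0.32 (SE 0.11, limma adjusted p = 0.021) and did not pass in edgeR (-0.27, adjusted p = 0.081) or when P6 replicate 2 was left out (-0.22, limma adjusted p = 0.18). Between mature and embryonic retina the log2 fold change was -0.20 (SE 0.07, limma adjusted p = 0.012), a call that did not hold under edgeR (-0.10, adjusted p = 0.25) or median-of-ratios scaling (-0.12, adjusted p = 0.15).

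The log2 ratio of Ss18l1 to Ss18 was -1.29 ± 0.09 (SD, n = 6) in embryonic and -0.26 ± 0.22 (SD, n = 14) in mature libraries, with no overlap. The difference was 1.03 (exact permutation p = 2.6e-05, adjusted p = 3.2e-05). The ratio was -1.35 ± 0.06 (SD, n = 4) at P1, -0.41 ± 0.17 (SD, n = 3) at P6, -0.31 ± 0.15 (SD, n = 4) at P15 and -0.19 ± 0.23 (SD, n = 4) at P28, so that its largest step lay between P1 and P6. Per kilobase of exon, Ss18l1 made up 46.9% ± 1.53 (SD, n = 6) of the pair in embryonic and 64.3% ± 3.47 (SD, n = 14) in mature retina. By the longest transcript these shares were 28.1% and 44.4%, so which of the pair was the more abundant in mature retina depends on the length used.

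Smarcd3 (chr5:24590818-24624411, minus strand), a bridging subunit enriched in neuronal and cardiac complexes, dipped after birth. It measured 24.3, 19.5 and 21.4 CPM at E14, 22.8, 24.9 and 25.1 CPM at E17 and 22.9, 23.6, 21.0 and 20.9 CPM at P1. The mean was 16.2 ± 1.22 CPM (SD, n = 3) at P6, and the libraries of P15 and P28 lay between 14.2 and 16.8 CPM. P60 libraries read 16.7, 18.3, 21.8, 27.1, 29.5 and 20.9 CPM, with replicates 3 to 6 back in or above the range of P1. The fall from P1 to P6 was -0.43 (SE 0.14, limma adjusted p = 0.013), and the adjusted p was 0.067 without P6 replicate 1. The rise from P28 to P60 was 0.42 (SE 0.12, limma adjusted p = 0.021), and without P60 replicates 3 to 6 it was 0.10 (adjusted p = 0.8). That call was also lost when P28 replicate 1 or 2 or P60 replicate 4 or 5 was left out (adjusted p from 0.056 to 0.066). Between mature and embryonic retina the log2 fold change was -0.37 (SE 0.09, limma adjusted p = 3.7e-04) with overlapping groups. The overlap came from P60 replicates 3 to 6 alone, since the other 10 mature libraries read 14.2 to 18.3 CPM and the embryonic ones 19.5 to 25.1 CPM. Without those replicates the log2 fold change was -0.48 (limma adjusted p = 1.6e-07). They held the highest mature values and were left out after seeing the data, so the lower p adds no support. Chpf2 and Mir671 overlap Smarcd3 on the opposite strand.

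Most of the change fell between P1 and P15. From P1 to P6, 4 members rose (Smarca2, Dpf3, Actl6b and Ss18l1) and 4 fell (Smarca4, Actl6a, Ss18 and Smarcd3), while 18.0% of all features were higher and 20.4% lower. From P6 to P15, 2 rose and 6 fell, beside 14.4% and 19.0% of all features. Earlier steps were small. From E14 to E17, 1 member was higher, Smarca2, and 0 lower, beside 7.56% and 3.02% of all features. From E17 to P1 no member passed limma's adjusted test in either direction (5.77% and 3.43% of all features), 3 members, Smarca4, Smarca2 and Ss18l1, had an unadjusted p under 0.05, and edgeR called 0 after adjustment. Without P60 replicates 3 to 6 in the shared estimate of the spread, 3 members were called at this step, Smarca2 higher and Smarca4 and Dpf1 lower.

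Later steps were also small. From P15 to P28 the sole call was Dpf3, 1 member higher and 0 lower, beside 1.14% and 1.58% of all features. From P28 to P60, 1 member was higher (Smarcd3) and 1 lower (Phf10), beside 4.80% and 8.11%, and 0 of the 10 were called without P60 replicates 3 to 6.

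**Figure D4:**
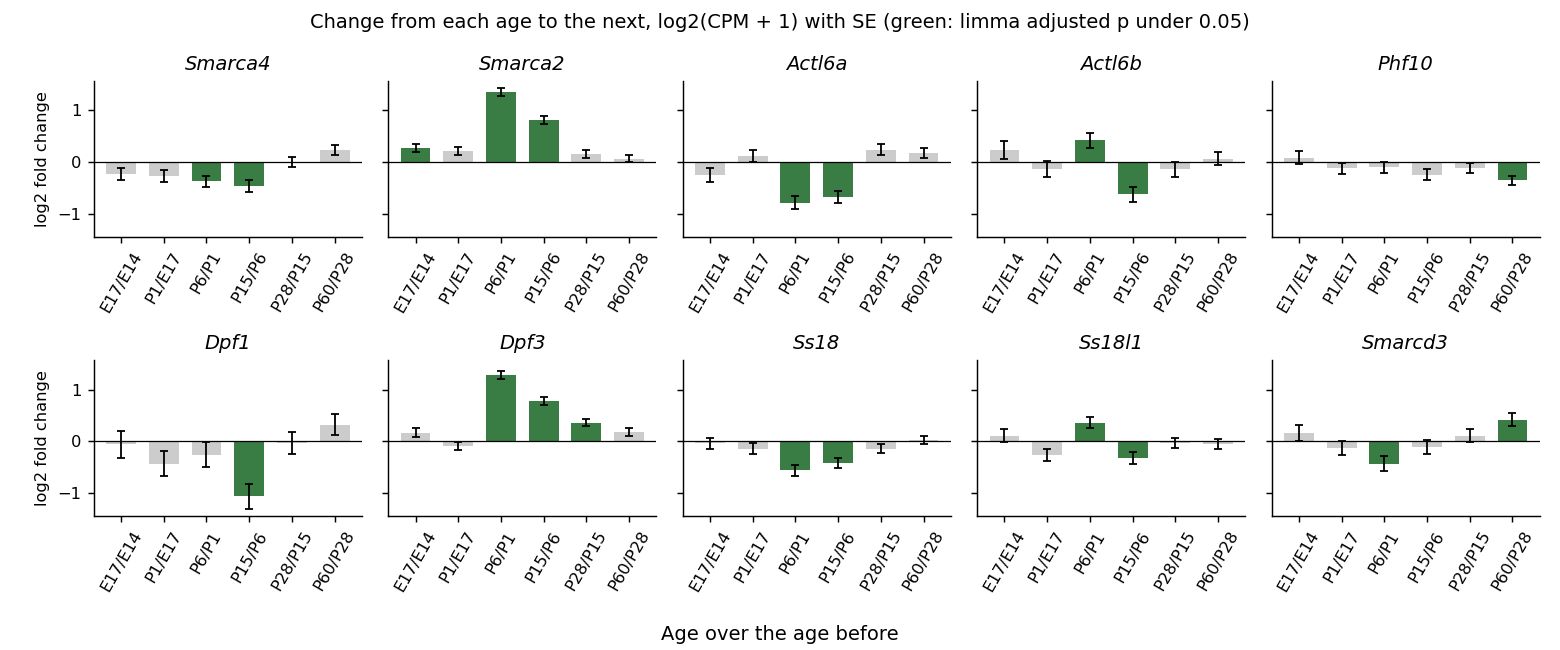
Log2 fold change on the log2(CPM + 1) scale with SE (vertical axes) from each age to the next (horizontal axes) for the 10 genes, with green bars for a limma adjusted p under 0.05 and grey bars for other steps. The tallest bars are those of Smarca2 (1.35) and Dpf3 (1.28) from P1 to P6, and 8 of the 10 genes have a green bar at that step and 8 at the step from P6 to P15.

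The other BAF subunits gave the context of these changes. Of the 20 measured, 3 were higher in mature than in embryonic retina, 16 lower and 1 passed in neither direction (limma, adjusted p under 0.05). The shares of all features were 35.0% higher and 40.4% lower, and the median log2 fold change of the 20 was -0.97. Among the 16, Brd9 had overlapping groups (-0.16, SE 0.07, limma adjusted p = 0.04) and did not pass in edgeR (-0.06, adjusted p = 0.5). Its call was also lost in 9 of the limma fits that left out 1 library (adjusted p from 0.059 to 0.11). The core subunit gene Smarcc1 went from a mean of 315.0 to 54.5 CPM (log2 fold change -2.51, SE 0.07, limma adjusted p = 1.3e-25), while its close relative Smarcc2 stood at 188.0 and 179.0 CPM (-0.12, SE 0.09, adjusted p = 0.19). Smarcc2 passed as lower without P60 replicates 3 to 6 (-0.23, limma adjusted p = 0.0033) and with the replicate number as a block (-0.22, limma adjusted p = 0.012). In edgeR its log2 fold change was 0.00 (adjusted p = 0.98). Bcl11a, a zinc finger factor found in neural BAF complexes, fell most, from 164.0 to 23.0 CPM (-2.77, SE 0.07, limma adjusted p = 3.0e-26). Bcl7b rose the most of the 20, from 9.11 to 20.2 CPM (1.06, SE 0.11, limma adjusted p = 2.1e-10).

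Relatives of the members did not move as a block. Dpf2, the ubiquitous PHD-finger form, fell by 0.81 on the log2 scale (SE 0.09, limma adjusted p = 5.5e-10). Among the relatives of Smarcd3, Smarcd1 fell from 78.5 to 27.1 CPM (-1.50, SE 0.07, limma adjusted p = 2.0e-19) and Smarcd2 rose from 13.4 to 21.9 CPM (0.62, SE 0.11, adjusted p = 6.3e-06), with overlapping groups for Smarcd2. Per kilobase of exon, Smarcd1 went from 21.0 ± 0.374 CPM (SD, n = 3) at E14 to 6.23 ± 0.418 (n = 4) at P28, Smarcd2 from 3.73 ± 0.178 to 5.52 ± 0.223, and Smarcd3 was at 4.24 ± 0.472 and 3.17 ± 0.108.

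**Figure D5:**
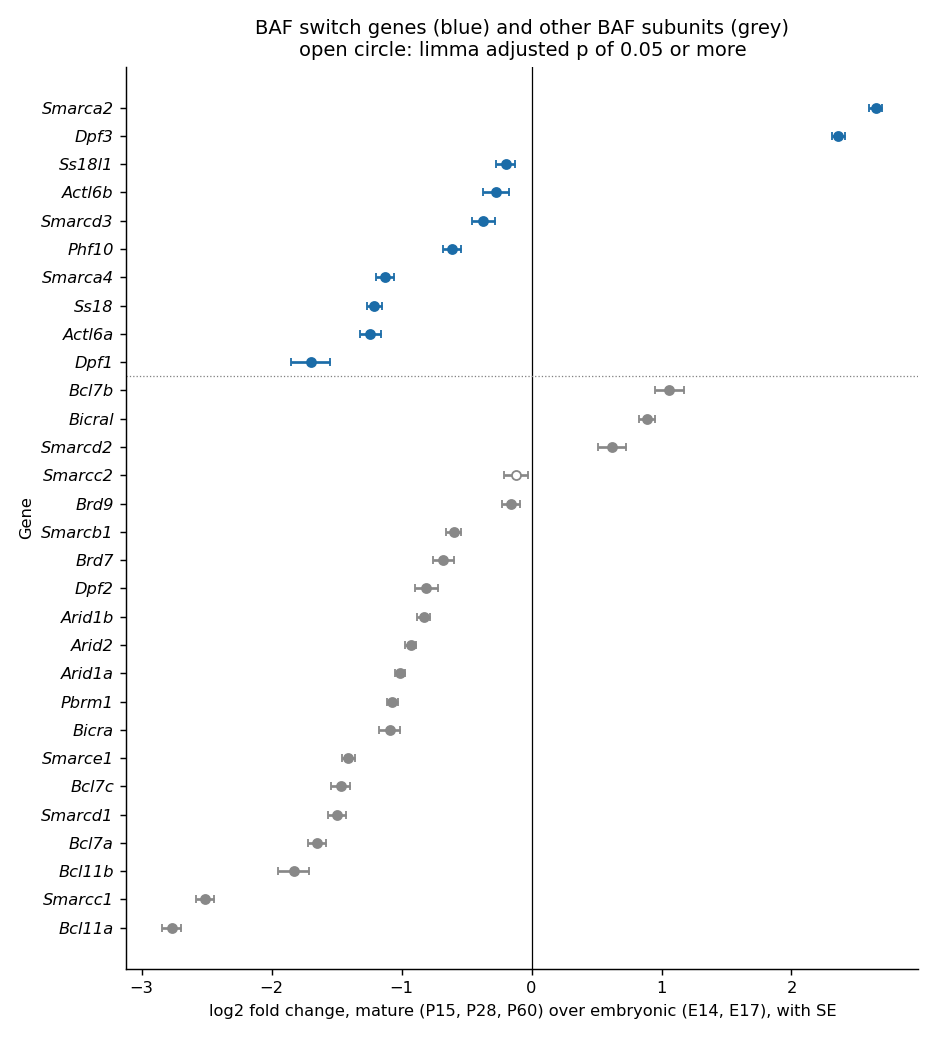
Log2 fold change (horizontal axis, with SE) of mature over embryonic retina for the 10 genes (blue) and the 20 other BAF subunits (grey), with an open circle where the limma adjusted p was 0.05 or more. Smarca2 at 2.65 and Dpf3 at 2.36 lie to the right of all other subunits, of which Bcl7b at 1.06 is the highest and Bcl11a at -2.77 the lowest.

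Genes known to act on the switch changed as well. Rest, the repressor of neuronal genes, went from a mean of 99.5 to 34.5 CPM (log2 fold change -1.50, SE 0.06, limma adjusted p = 1.4e-20), and its corepressor Rcor1 from 82.0 to 44.1 CPM (-0.88, SE 0.06, adjusted p = 3.2e-15). The host transcript Mir124a-1hg of miR-124 rose from 269.0 to 1864.0 CPM (2.94, SE 0.06, limma adjusted p = 2.3e-28) and Mir124-2hg from 114.0 to 456.0 CPM (2.02, SE 0.05, adjusted p = 5.5e-26). C130071C03Rik, a host transcript of miR-9, had means of 72.7 CPM at E14, 137 CPM at E17 and 167 CPM at P1, and then 62.8 CPM at P6. Its mature mean of 42.4 CPM lay below the embryonic mean of 105.0 CPM (-1.21, SE 0.07, limma adjusted p = 1.7e-16), which spans the unlike levels of E14 and E17. These are long host transcripts, and mature miRNAs were not measured in these libraries.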

How the data were processed

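RNA was measured in whole mouse retina in 27 libraries grouped by age as labeled. The authors built libraries with a SMARTer total RNA kit, sequenced them single-end (HiSeq) and used STAR to align reads to GRCm38 (mm10), as their methods and the submitters' processing notes state. The deposited values are CPM, the read count of each feature divided by the total of its library. The annotation and the use of strand are not given in the sources used here, so genes overlapped by others are uncertain. Values were whole multiples of 1 read in each library (100.0% within 0.05 of a whole read), which gave the recovered reads. In E14 replicate 1 the step lies near a round decimal, so edgeR was also run without that library. The labels do not state that libraries of an age came from separate litters, and p-values measure the spread between these libraries, which may be partly technical. No pair of libraries of the same age agreed within sampling noise (lowest chi-square per degree of freedom 1.72).

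The main test was limma 3.58.1 (R 4.3.3) with a mean-variance trend on log2(CPM + 1) over the 31760 features with 1 CPM or more in 3 or more libraries and all libraries, fitted by age. Tests were two-sided, and p-values were adjusted by Benjamini-Hochberg over these features. A member was called at an adjusted p under 0.05. Fold changes are on the log2(CPM + 1) scale, which understates the change of low genes. The mature against embryonic contrast averaged the age means. Ratios used log2(CPM + 0.1) within libraries and exact two-sided permutation tests, adjusted over 5 ratios. Shares divided CPM by the union of annotated exons (GENCODE on GRCm38) and had no test. Where a symbol had several rows, the row with the highest mean was used. Alternatives were a pseudocount of 0.1, no filter or a mean of at least 10 CPM, a replicate block, median-of-ratios scaling, edgeR 4.0.16 (quasi-likelihood, TMM) on recovered reads, only the compared ages, summed rows, a minimum log2 fold change of 1, other lengths for shares, and leaving out each library. Leaving out P60 replicates 3 to 6 was added after seeing the data. These libraries also enter the shared estimate of the spread, so smaller p-values without them add no support. The tests were run on simulated data with known changes, to check that they work as coded. The simulated reads had a spread set alike for all features and no libraries that stood apart. They therefore do not bear on calls that move with P60 replicates 3 to 6. Python 3.11.15 with numpy 2.4.6, pandas 2.3.3 and matplotlib 3.10.9 was used.

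Named genes were the 10 members, up to 8 of 20 other BAF subunits (mainly the largest changes and relatives of members) and 5 genes known to act on the switch. The members, lists and tests were chosen with earlier results of these data known.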

Additional observations from a re-analysis of the deposited data

Results flagged for a closer look

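Of the values described, 3 stood far from the other libraries of their age (Dixon's test at the 95% level), among 60 groups of 4 or 6 libraries tested, of which chance flags about 1 in 20. Smarca4 read 169 CPM in P28 replicate 4, where the other P28 libraries read 149 to 151 CPM. Dpf3 read 61.0 CPM in P1 replicate 2, beside 50.5 to 51.7 CPM in the other P1 libraries. The log2 ratio of Dpf3 to Phf10 was 2.06 in P15 replicate 4, beside 1.75 to 1.79 in the other P15 libraries. No explanation of these values was tested.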

How the results depend on the processing

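Shares of all features were taken for the main limma fit alone, so counts under other settings have none beside them. Between mature and embryonic retina limma called all 10 members, beside 35.0% of all features higher and 40.4% lower, and edgeR called 8. Of the limma calls, 6 were past a log2 fold change of 1 in either direction. That minimum left 2 calls at P6 against P1, 1 at P15 against P6 and 0 at E17 against E14, at P28 against P15 and at P60 against P28. From E14 to E17, median-of-ratios scaling, edgeR and edgeR without E14 replicate 1 gave 0 calls, the ages compared alone 3, the fit without P60 replicates 3 to 6 gave 2, and leaving out 1 library 0 to 1. From E17 to P1, the 10 CPM filter and summed rows gave 1, the ages compared alone 4, the fit without P60 replicates 3 to 6 gave 3, and leaving out 1 library 0 to 1 (1 without P15 replicate 4 or P60 replicate 1). From P28 to P60, the ages compared alone and the fit without P60 replicates 3 to 6 gave 0 and leaving out 1 library 1 to 3. The replicate number was not a pairing, since each age used different mice and same-numbered libraries of different ages deviated from their age means with a median r of -0.00 (-0.13 to 0.17, 69 pairs), with 3 libraries closest to their own number. With the number as a block, 10 members were called between mature and embryonic retina, 0 from P28 to P60, and the P28 to P60 differences of Actl6b and Dpf1 reversed to -0.04 and -0.05, none of them called.

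Other reversals were of differences that limma did not call with all libraries. From P15 to P28, Smarca4 was 0.01 under median-of-ratios scaling and both edgeR fits, and leaving out 1 library gave -0.06 to 0.07 for Smarca4, -0.15 to 0.06 for Dpf1 and -0.07 to 0.02 for Ss18l1. From P28 to P60, Ss18l1 was 0.02 under median-of-ratios scaling and edgeR, 0.01 in edgeR without E14 replicate 1 and -0.09 to 0.00 with 1 library left out, and Ss18 was -0.02 to 0.09. Without P60 replicates 3 to 6 the P28 to P60 values were -0.07 for Smarca4, -0.01 for Smarca2, -0.20 for Actl6b and -0.27 for Dpf1. With all libraries this difference was 0.24 for Smarca4 (limma adjusted p = 0.088) and 0.32 for Dpf1 (limma adjusted p = 0.31), and that of Smarca4 passed as higher without P60 replicate 1 or 2 (lowest limma adjusted p = 0.014). With the longest transcript as length the embryonic and mature shares were 17.8% and 29.6% for Actl6b, 14.0% and 69.1% for Smarca2, 28.1% and 44.4% for Ss18l1, and the embryonic shares 24.6% for Dpf1 and 44.1% for Dpf3. With coding length they were 13.3% and 67.7% for Smarca2, 29.8% and 46.5% for Ss18l1, and 25.0% and 45.5% for the embryonic shares of Dpf1 and Dpf3. All 5 ratio tests kept their direction and their side of the threshold in every alternative run. The cause of these differences between settings was not tested. Depth limits the low genes most: Dpf1 had 33 to 110 reads in mature libraries.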
